A study of Mus musculus with 10 samples.

Results

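The genes described here encode the receptors for noradrenaline and adrenaline, dopamine, serotonin, acetylcholine and histamine. They were chosen by symbol from the RefSeq protein-coding genes of the mouse genome mm10, as all genes named Adra, Adrb, Drd, Htr, Chrm or Hrh with a number, together with the nicotinic subunits Chrna, Chrnb, Chrnd, Chrne and Chrng. There were 53 such genes among 21774 protein-coding genes. The data were chromatin immunoprecipitation sequencing (ChIP-seq) peak lists for the estrogen receptor ERα, with 4 libraries from the arcuate nucleus and 4 from the anteroventral periventricular nucleus (AVPV) of C57BL/6 mice. All animals were female, ovariectomised and given a 2 cm implant of 17β-estradiol at 0.1 mg/mL, and all received estradiol benzoate at 0.05 mg/kg with tissue taken 28 h after that injection. No vehicle group was among these samples, so the comparison was between nuclei under the same estradiol treatment. The chromatin was pooled. The sources used here gave neither the number of animals pooled nor whether every library had its own pool. Every SD and p-value below was therefore taken over libraries and not over animals. If libraries shared a pool, these values would reflect repeats on the same chromatin alone. A binding list does not measure expression, and a place without a called peak was not shown to be unbound.

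The receptors for these transmitters fall into 2 kinds. Most are G-protein-coupled receptors, which act through Gs to raise cyclic AMP, through Gi to lower it and often to open potassium channels, or through Gq to mobilise calcium. The nicotinic subunits and the Htr3 subunits assemble instead into ion channels that open directly on binding acetylcholine or serotonin. Noradrenaline, dopamine, serotonin and histamine neurons all send fibres to the hypothalamus, where their receptors affect the neurons that control gonadotropin, prolactin, feeding and arousal. The arcuate holds kisspeptin neurons linked to estrogen-negative feedback as well as dopamine neurons that restrain prolactin, and the AVPV holds kisspeptin neurons linked to the positive feedback of estrogen in females. ERα binds DNA directly at estrogen response elements, a palindrome with the letters GGTCANNNTGACC, in which N is any base.

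A gene was counted as bound in a library when its start site was the nearest protein-coding start site to the centre of at least 1 peak in that library. It was called in a nucleus when it was bound in at least 2 of the 4 libraries. By this count 16 of the 53 receptor genes were bound in at least 1 of the 8 libraries, which is 30.2% beside 25.5% of all protein-coding genes. In the arcuate 7 were called, or 13.2% beside 14.2% of all genes, and in the AVPV 8 were called, or 15.1% beside 11.5%. The called genes of the arcuate were Adra2a, Adra2c, Drd3, Hrh1, Htr1b, Htr1d and Htr5a, and those of the AVPV were Chrm4, Drd3, Hrh1, Hrh4, Htr1a, Htr1d, Htr2a and Htr7. The genes called in both were Drd3, Hrh1 and Htr1d. When start sites of non-coding genes competed as well, 2 receptor genes (Hrh1 and Htr5a) were called in the arcuate, beside 9.79% of all protein-coding genes, and 3 (Chrm4, Hrh1 and Htr2a) in the AVPV, beside 8.07%. Within 20 kb of the start site none was called in either nucleus, beside 8.6% and 7.17% of all genes. All 16 bound genes encoded G-protein-coupled receptors, while none of the 18 ion-channel subunits was bound in any library.

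Overlapping peaks of the 8 lists (1 bp or more) were joined into 8072 regions, of which 31 had a receptor gene as their nearest gene and 15 of these held a peak in at least 2 libraries. The sequences at the summits of the 7 regions with a peak in at least 3 libraries are shown because the results on single genes turn on them. They were read from GRCm38.p6 (mm10), plus strand, 5′ to 3′, in windows of 121 bp that contain the summit. Capitals mark a match to the response element that differs at no more than 2 of its 10 fixed bases, and a window in lower case throughout had no such match within 100 bp of the summit.
Htr1d (chr4:136387378-136387498): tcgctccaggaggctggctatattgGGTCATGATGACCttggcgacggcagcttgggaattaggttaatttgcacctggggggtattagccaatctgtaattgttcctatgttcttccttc
Hrh1 (chr6:114432920-114433040): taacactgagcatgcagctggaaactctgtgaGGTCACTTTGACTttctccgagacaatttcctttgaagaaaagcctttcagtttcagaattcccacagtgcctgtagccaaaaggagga
Htr2a (chr14:74678583-74678703): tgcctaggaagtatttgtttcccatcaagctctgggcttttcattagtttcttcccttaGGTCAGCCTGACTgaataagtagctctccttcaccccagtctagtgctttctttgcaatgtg
Htr1a (chr13:105396621-105396741): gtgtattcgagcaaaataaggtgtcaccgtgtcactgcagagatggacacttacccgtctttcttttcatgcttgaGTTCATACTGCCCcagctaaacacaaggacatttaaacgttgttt
Htr1b (chr9:81592046-81592166): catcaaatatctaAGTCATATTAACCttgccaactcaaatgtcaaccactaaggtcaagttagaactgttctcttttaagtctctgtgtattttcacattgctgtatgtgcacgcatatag
Drd3 (chr16:43800099-43800219): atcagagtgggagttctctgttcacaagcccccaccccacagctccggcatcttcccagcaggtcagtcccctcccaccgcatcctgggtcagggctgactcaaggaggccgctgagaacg
Htr5a (chr5:27908937-27909057): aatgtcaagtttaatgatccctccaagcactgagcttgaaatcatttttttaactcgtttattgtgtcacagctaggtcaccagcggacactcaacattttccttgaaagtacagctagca
The Htr1d window held the element without a mismatch, at chr4:136387403-136387415, with its centre 29 bp from the summit. Hrh1 and Htr2a had an element with 1 mismatch, at 22 bp and 5 bp from the summit. Htr1a and Htr1b had an element with 2 mismatches, at 22 bp and 41 bp. A match describes the letters and does not show that ERα was bound through them.

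Htr1d, which encodes a Gi-coupled serotonin receptor found on axon terminals and is a target of the triptan drugs, was the receptor gene with the most regular binding. It was bound in all 8 libraries, as 1 of 53 receptor genes, beside 4.83% of all protein-coding genes. The region lay at chr4:136387068-136387697, intergenic and 36.1 kb upstream of the Htr1d start site, and the next nearest protein-coding gene was Hnrnpr at 75.8 kb. Its fold enrichment over the local background was 14.1, 16.1, 11.7 and 9.74 in arcuate libraries 1 to 4 and 12.8, 16.2, 14.7 and 17.3 in AVPV libraries 1 to 4. The libraries of the nuclei overlapped, with the weakest peak in arcuate library 4 and the strongest in AVPV library 4. Since each list has its own background, strength was also expressed as the percentile of fold enrichment within the list, and these percentiles ran from 83.9 to 95.2. The arcuate mean was the 89.5 percentile ± 4.94 (SD, n = 4) and the AVPV mean the 91.5 percentile ± 3.24 (SD, n = 4). The difference, arcuate minus AVPV, was −2.01 percentile points, less than the SD of either nucleus (exact two-sided permutation p = 0.571, adjusted p = 0.724 over the 1089 regions with a peak in every library). Of those 1089 regions, 21.0% had an unadjusted exact permutation p at the 0.05 threshold or below, and 0 passed after adjustment. The smallest p that 4 against 4 libraries allow is 0.0286. The summits of the 8 peaks lay within 83 bp of each other. The start site of a long non-coding RNA gene, Gm31295, lay 0.108 kb from the centre of the region, much closer than that of Htr1d. The assignment to Htr1d thus holds among protein-coding genes alone.

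**Figure D1:**
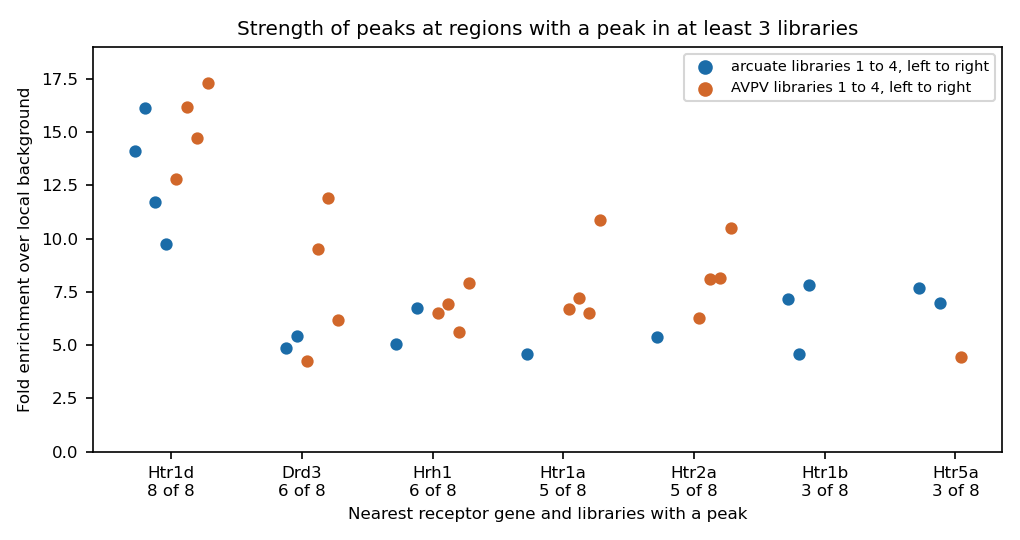
Fold enrichment over local background (vertical axis, linear) of each peak at the 7 regions with a peak in at least 3 libraries, named by the nearest receptor gene. Points are single libraries, blue for arcuate and orange for AVPV, and a missing point means no called peak. At Htr1d all 8 libraries had a peak, from 9.74 to 17.3, whereas the Htr1b region had points from 3 arcuate libraries alone.

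The other serotonin receptors showed binding that leaned to different nuclei. Htr1a and Htr2a were bound in 4 AVPV libraries and 1 arcuate library, and Htr1b in 3 arcuate libraries and no AVPV library. None of these differences passed Fisher's exact test, which gave p = 0.143 for each of the 3 genes. Over the 5550 genes bound in at least 1 library, 148 genes (2.67%) were bound in all 4 libraries of 1 nucleus and none of the other, 121 of them in the arcuate and 27 in the AVPV, and no receptor gene was among them. All adjusted p-values were 1, and the 148 genes were also those with an unadjusted Fisher's exact p of 0.05 or less. At the level of regions, 2.95% of the 8072 regions were separated in this way and 0 of the 31 receptor regions.

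Htr1a encodes the Gi-coupled receptor that serves as the autoreceptor of serotonin cell bodies and is also present on their target neurons. Its main region lay at chr13:105396518-105396839, intergenic, 47.0 kb upstream. Fold enrichment there was 4.56 in arcuate library 1 and 6.72, 7.23, 6.53 and 10.9 in AVPV libraries 1 to 4. All 4 AVPV peaks were higher than the single arcuate peak, which stood at the 16.5 percentile of its list while the AVPV peaks stood between the 55.4 and 82.2 percentiles. A second region, 33.0 kb upstream, had peaks in AVPV libraries 1 and 4 (fold enrichment 4.71 and 5.39). The third, 407 kb downstream, had a peak in arcuate library 1 alone (5.13). The start site of the long non-coding RNA gene Gm31130 lay 12.98 kb from the main region and 1.02 kb from the second, nearer than Htr1a in both cases.

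Htr2a encodes a Gq-coupled serotonin receptor and the main target of the classic hallucinogens. Its main region lay within a Htr2a intron at chr14:74678401-74679027, 37.8 kb downstream of the start site. Fold enrichment was 5.39 in arcuate library 1 and 6.28, 8.09, 8.14 and 10.5 in AVPV libraries 1 to 4. As at Htr1a, the single arcuate peak in the main region came from arcuate library 1 and was lower than each AVPV peak. A second region in the intron, 38.5 kb downstream, had a peak in arcuate library 1 alone (fold enrichment 4.88). No non-coding start site was nearer to the main region than that of Htr2a, but the margin was small. The long non-coding RNA gene Gm41210 started 37.868 kb from it, beside 37.84 kb for Htr2a. Arcuate library 1 was the only arcuate library with a peak nearest to either gene, so leaving it out fixed their separation in advance. Both Htr1a and Htr2a were then bound in 4 of 4 AVPV and 0 of 3 arcuate libraries. Separation of this kind, in 1 nucleus or the other, was found in 3.87% of the 5298 genes then bound. Each list was also reduced to its 2367 strongest peaks, the length of the shortest list, that of AVPV library 1. Arcuate library 1, the longest list with 4079 peaks, was cut most. Both genes were then bound in all 4 AVPV libraries and no arcuate library (Fisher's exact p = 0.0286 for each). Separation in either direction was found in 3.02% of 4104 genes. The split arose because arcuate library 1 lost its peaks nearest to both genes. It is therefore not independent of the result without that library.

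Htr1b encodes the Gi-coupled autoreceptor of serotonin terminals. The only region nearest to it, at chr9:81591990-81592236, was intergenic and 41.7 kb downstream. Fold enrichment was 7.18, 4.57 and 7.82 in arcuate libraries 1 to 3, and no peak was called in arcuate library 4 or in any AVPV library. The 3 peaks stood at the 62.6, 20.6 and 69.0 percentiles of their lists. Arcuate library 4 was the only arcuate library without a peak there, so leaving it out fixed the separation in advance. Htr1b was then bound in 3 of 3 arcuate and 0 of 4 AVPV libraries, beside 5.76% of the 5067 genes then bound that were separated in either direction. The non-coding gene D430036J16Rik started 39.8 kb from this region, slightly closer than Htr1b.

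Htr5a, a Gi-coupled serotonin receptor gene, was bound in 3 arcuate libraries and 1 AVPV library (Fisher's exact p = 0.486). The peaks did not fall in 1 place. Its region 67.0 kb downstream, at chr5:27908818-27909166, had fold enrichments of 7.70 and 6.98 in arcuate libraries 1 and 3 and 4.45 in AVPV library 1. The long non-coding RNA gene Gm17695 started 43.0 kb from that region, nearer than Htr5a. A region in an untranslated or non-coding part of a Htr5a exon, 0.170 kb from the start site, had a peak in arcuate library 4 alone (5.05), and a region 38.6 kb downstream had one in arcuate library 3 alone (5.54). Htr7, which encodes a Gs-coupled receptor, was bound in AVPV libraries 2 and 4 and in no arcuate library (exact p = 0.429), at a region 543 kb downstream with fold enrichments of 5.49 and 5.11. A snoRNA gene, Gm25611, started closer to that region, at 245 kb. The other 6 G-protein-coupled serotonin receptor genes (Htr1f, Htr2b, Htr2c, Htr4, Htr5b and Htr6) and both channel subunits Htr3a and Htr3b were bound in no library.

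Hrh1, which encodes the Gq-coupled histamine receptor that promotes wakefulness and is blocked by classic antihistamines, was bound in 3 arcuate and 4 AVPV libraries (Fisher's exact p = 1). It had more regions than any other receptor gene, 7 of the 31, and also the most start sites, 4. Of its regions, only the main one had a peak in more than 2 libraries. The main region, at chr6:114432700-114433119 in a Hrh1 intron and 25.6 kb upstream of the nearest of its start sites, had fold enrichments of 5.05 and 6.75 in arcuate libraries 1 and 3. In the AVPV they were 6.52, 6.94, 5.62 and 7.92 in libraries 1 to 4. The ranges of the nuclei overlapped, and arcuate libraries 2 and 4 had no peak there. Arcuate library 4 contributed 3 peaks to Hrh1 at other regions, 60.8, 72.9 and 81.6 kb downstream, at fold enrichments of 3.32 to 5.05. Hrh4, a histamine receptor gene best known from immune cells, was bound in AVPV libraries 1 and 3 alone (exact p = 0.429), 133 kb from its start site and 1.12 kb from that of the long non-coding RNA gene Gm36563. Hrh2 and Hrh3 were bound in no library.

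Drd3, which encodes a Gi-coupled dopamine receptor of the D2-like kind, was the only dopamine receptor gene bound, in 2 arcuate and 4 AVPV libraries (Fisher's exact p = 0.429). All 6 peaks fell in 1 region inside a Drd3 intron, chr16:43799801-43800434, 37.9 kb downstream of the start site. Fold enrichment was 4.89 and 5.41 in arcuate libraries 3 and 4 and 4.26, 9.54, 11.9 and 6.18 in AVPV libraries 1 to 4. Both arcuate peaks were lower than those of AVPV libraries 2, 3 and 4 and higher than that of AVPV library 1. The snoRNA gene Gm26074 started 33.7 kb from the region, slightly closer than Drd3. Drd1, Drd2, Drd4 and Drd5 were bound in no library.

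Among the adrenoceptors, the Gi-coupled α2 genes Adra2a and Adra2c, which encode presynaptic receptors that limit noradrenaline release, were the called genes, both in the arcuate. Adra2c was bound in 3 arcuate libraries and 1 AVPV library (Fisher's exact p = 0.486) and Adra2a in 2 and 1 (exact p = 1). No Adra2a region recurred. Its peaks lay 0.129 kb from the start site in arcuate library 4, 200 kb downstream in arcuate library 1 and 515 kb downstream in AVPV library 2. Adra2c had 2 regions with a peak in 2 libraries. The region 69.0 kb upstream had fold enrichments of 4.86 and 2.78 in arcuate libraries 1 and 2, and the region 77.3 kb upstream 3.27 in arcuate library 3 and 4.07 in AVPV library 3. The Adra2c peaks were weak within their lists, between the 0.582 and 21.9 percentiles. The long non-coding RNA gene Gm40281 started nearer to both upstream regions than Adra2c, at 20.3 and 28.6 kb. Adrb1, the Gs-coupled β receptor of the heart, was bound in 1 arcuate library, and the α1 genes Adra1a, Adra1b and Adra1d, together with Adra2b and Adrb3, were bound in none.

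The muscarinic genes were bound in few libraries. Chrm4, a Gi-coupled receptor gene, was bound in AVPV libraries 1 and 4 and no arcuate library (exact p = 0.429), at a region in an intron of Ambra1, 77.8 kb upstream of Chrm4. Fold enrichment there was 4.18 and 5.11. When a peak inside a gene was given to that gene first, Chrm4 was bound in no library, and with stricter thresholds or lists of equal length it was bound in 1 AVPV library. Chrm2 had 1 peak, in AVPV library 1, and Chrm3 had 1, in arcuate library 3 and 289 kb upstream, while Chrm1 and Chrm5 had none.

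**Figure D2:**
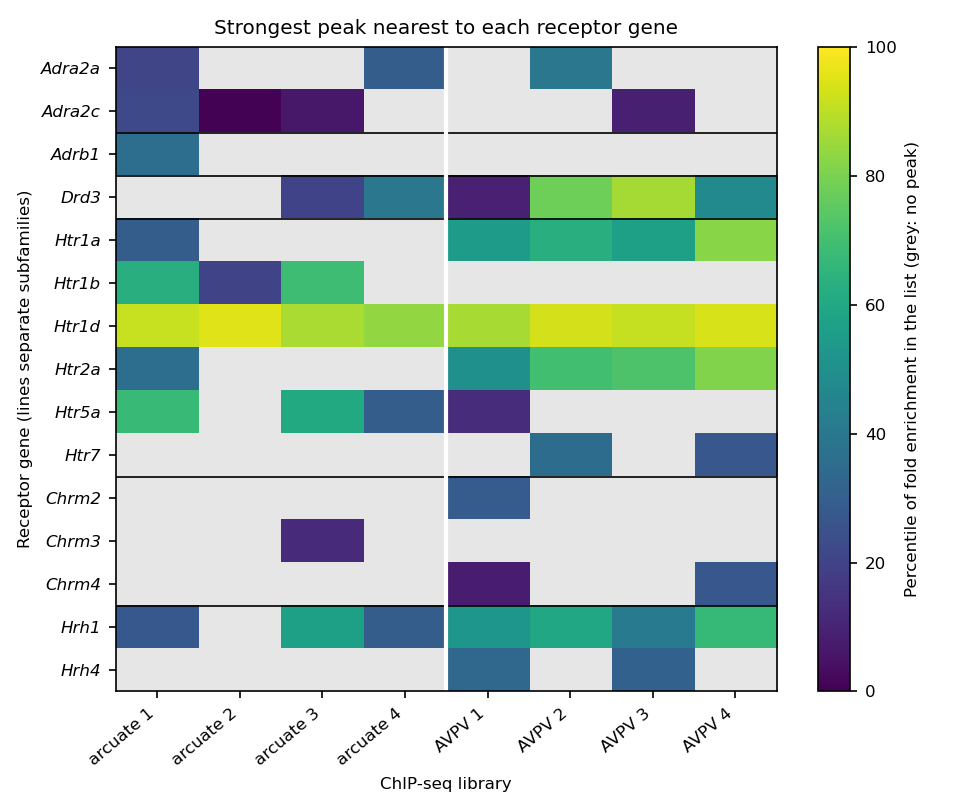
Strongest peak nearest to each of 15 of the 16 bound receptor genes (rows, horizontal lines between subfamilies) in each library (columns). Colour gives the percentile of fold enrichment within the library's own list on a scale of 0 to 100, and grey means no peak. Htr1d is filled in all 8 columns between 83.9 and 95.2, and Htr1a and Htr2a are filled in 4 AVPV columns and arcuate library 1.

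All 16 nicotinic genes, which encode the α subunits that bind acetylcholine and the β, γ, δ and ε subunits that complete the channel, were bound in no library. Some share a locus, so they are not independent places in the genome. Chrna3 and Chrnb4 start 18.005 kb apart and Chrnd and Chrng 15.2 kb apart, and Chrna5 lies in the same cluster as Chrna3. For the nicotinic genes the median distance from the start site to the closest region with a peak in any library was 171 kb, beside 78.8 kb for all protein-coding genes and 67.0 kb for all 53 receptor genes. Chrng had the shortest such distance among them, with the edge of a region 7.83 kb away. That region, at chr1:87213637-87214090, had a peak in all 8 libraries and was the promoter of the neighbouring gene Eif4e2, a translation factor.

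The room around each gene moved with these counts. The bases that have a given start site as their nearest (the territory of the gene) had a median of 38.8 kb for the nicotinic genes, 262 kb for the G-protein-coupled serotonin receptor genes, 88.3 kb for all 53 and 49.2 kb for all protein-coding genes. Among all genes, the share bound in at least 1 library rose from 16.2% among genes with the smallest territories to 18.6%, 23.6% and 43.6% in the following bins, when genes were cut into 4 equal bins by territory. The receptor genes were spread over these 4 bins as 6, 13, 12 and 22 genes, of which 0, 0, 4 and 12 were bound. In the bin with the largest territories, from 114 kb upwards, 5 of 22 receptor genes were called in the arcuate and 5 in the AVPV, beside 26.2% and 20.6% of all genes of that bin. The part of territory size in the difference between receptor families was not tested. Chrna7, with a territory of 311 kb, and Chrna9, with 117 kb, were nicotinic genes of the largest bin and were bound in no library. In that bin 43.6% of all genes were bound, and so few genes cannot be told apart from that share.

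By coupling, 10 of 16 Gi-coupled receptor genes were bound in at least 1 library, 3 of 10 Gq-coupled and 3 of 9 Gs-coupled, which is 62.5%, 30% and 33.3% beside 25.5% of all protein-coding genes. Gi-coupled genes made up 6 of the 7 genes called in the arcuate (Adra2a, Adra2c, Drd3, Htr1b, Htr1d and Htr5a) and 5 of the 8 called in the AVPV (Chrm4, Drd3, Hrh4, Htr1a and Htr1d). The median territory was 126 kb for Gi-coupled, 236 kb for Gq-coupled and 115 kb for Gs-coupled genes. By transmitter, adrenoceptor genes were called in the arcuate in 2 of 9 cases and in the AVPV in 0, G-protein-coupled serotonin receptor genes in 3 and 4 of 12, and histamine receptor genes in 1 and 2 of 4. The shares of all protein-coding genes called were 14.2% in the arcuate and 11.5% in the AVPV. These are counts over small families without a test, and the difference between nuclei in them was not tested.

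**Figure D3:**
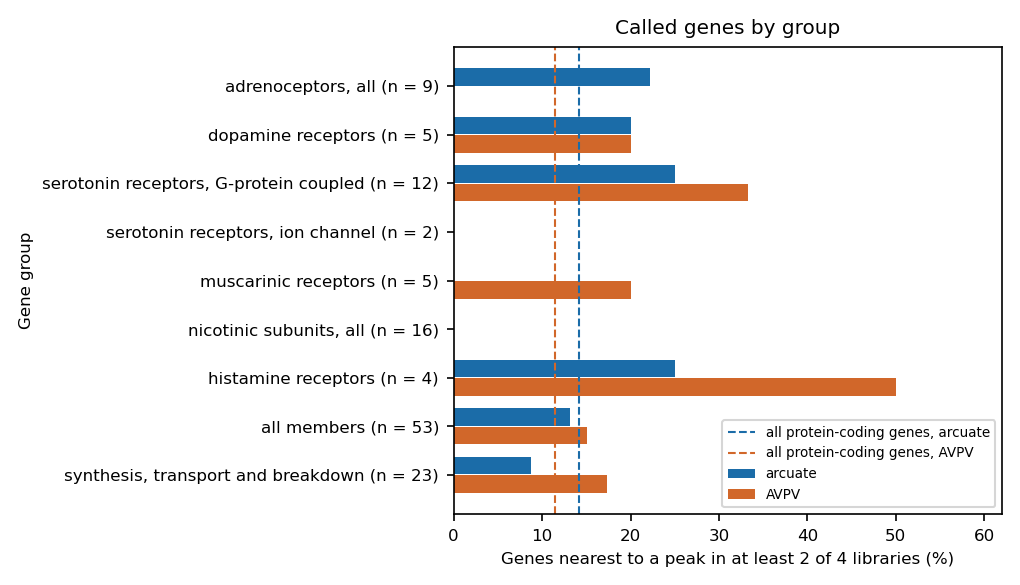
Percent of the genes of each family called in the arcuate (blue bars) and the AVPV (orange bars), with the number of genes in brackets, and dashed lines at the shares of all protein-coding genes (14.2% and 11.5%). The 16 nicotinic subunits have no bar, and the 4 histamine receptor genes reach 50% in the AVPV with 2 genes.

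All 15 receptor regions with a peak in at least 2 libraries lay beyond 20 kb of the start site. Within 20 kb of the start site, 7 receptor genes were bound in at least 1 library, beside 17% of all protein-coding genes. Each of these 7 near peaks was seen in a single library. Those of the genes named here lay at 0.129 kb from Adra2a, 0.170 kb from Htr5a, 0.734 kb from Hrh1, 0.998 kb from Chrm2, 11.8 kb from Adrb1 and 18.6 kb from Adra2c. The last of these was the region just inside the limit, and the next region outward was that of Hrh1 at 25.6 kb. The near peaks had fold enrichments of 3.96 to 5.39, between the 6.34 and 36.0 percentiles of their lists. The median percentile was 30.4 for receptor regions beyond 20 kb and 34.9 for all regions. For receptor regions with a peak in at least 2 libraries it was 41.5, and in at least 3 libraries 60.6. Those at Adra2a and Htr5a had the identical fold enrichment of 5.05 in the same library, arcuate library 4.

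Of the 31 receptor regions, 22.6% lay within 20 kb of the nearest start site, beside 51.3% of all 8072 regions, and among regions with a peak in at least 2 libraries the shares were 0 of 15 beside 51.0%. The median distance was 41.7 kb for receptor regions and 17.8 kb for all regions. Promoters held 1 of the 31 regions (that of Chrm2) beside 25.2% of all regions, and intergenic sequence held 22, or 71.0%, beside 32.4%. A peak in a single library was the case for 51.6% of receptor regions and 41.5% of all regions. A start site of a non-coding gene was nearer than that of the receptor gene for 18 of the 31 regions (58.1%), beside 39.3% of all regions. When start sites outside a nearest-gene rule were counted as well, 2 receptor genes had a start site within 20 kb of the edge of a region with a peak in at least 2 libraries, among them Chrng, beside 16.6% of all protein-coding genes.

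**Figure D4:**
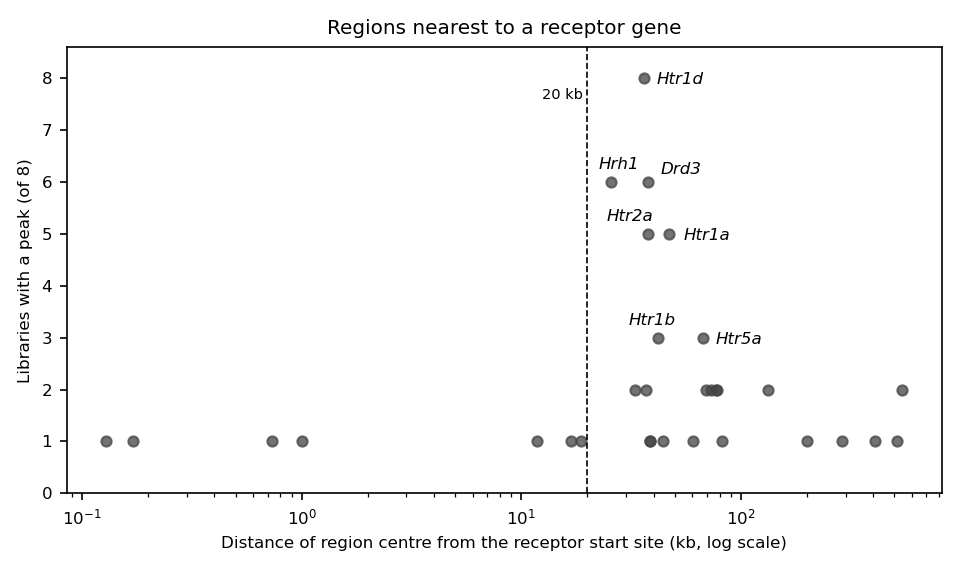
Distance of the centre of each of the 31 regions from the receptor start site in kb (horizontal axis, logarithmic) against the number of libraries with a peak (vertical axis, of 8), with a dashed line at 20 kb. Points with at least 3 libraries carry the gene name. The 7 points left of the line each have 1 library, and the points with 3 or more libraries lie between 25.6 and 67.0 kb.

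Response elements were counted at the receptor regions and at all regions, with no test. With at most 2 mismatches, 16 of the 31 receptor regions (51.6%) had an element within 100 bp of the summit, beside 48.4% of all regions. In windows moved by 5 kb to either side, the shares were 6.45% for receptor regions and 7.54% for all regions. Beyond 20 kb from a start site the share was 54.2% for receptor regions and 69.0% for all regions. An element without a mismatch was present at Htr1d alone among the 31 regions, beside 6.74% of all regions and 11.2% of the 1089 regions with a peak in every library. In the promoters, from 250 bp before to 50 bp after the start site in RefSeq sequence, 40 of the 53 receptor genes had a window. Of these 0 held the element without a mismatch on either strand, beside 0.0629% of 17492 genes, and 1 (Drd2) held it with at most 1 mismatch, or 2.5% beside 0.932%.

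Per library, the arcuate had 9, 4, 7 and 5 receptor genes bound and the AVPV 9, 7, 7 and 7. The means were 6.25 ± 2.22 (SD, n = 4) and 7.5 ± 1.0 (SD, n = 4), and the difference, arcuate minus AVPV, of −1.25 genes was smaller than the spread between arcuate libraries. The AVPV lists were shorter, with 2367 to 3347 peaks beside 3251 to 4079 in the arcuate. As a percent of all genes bound in the library, receptor genes made up 0.288, 0.130, 0.266 and 0.172 in the arcuate and 0.438, 0.324, 0.249 and 0.284 in the AVPV, with means of 0.214 ± 0.0752 and 0.324 ± 0.0825 (SD, n = 4). The libraries of the nuclei overlapped on both scales, and no test was run on these sums over chosen genes. Within 20 kb the direction turned, with a mean of 1.25 ± 0.50 receptor genes in the arcuate and 0.50 ± 0.577 in the AVPV (SD, n = 4).

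**Figure D5:**
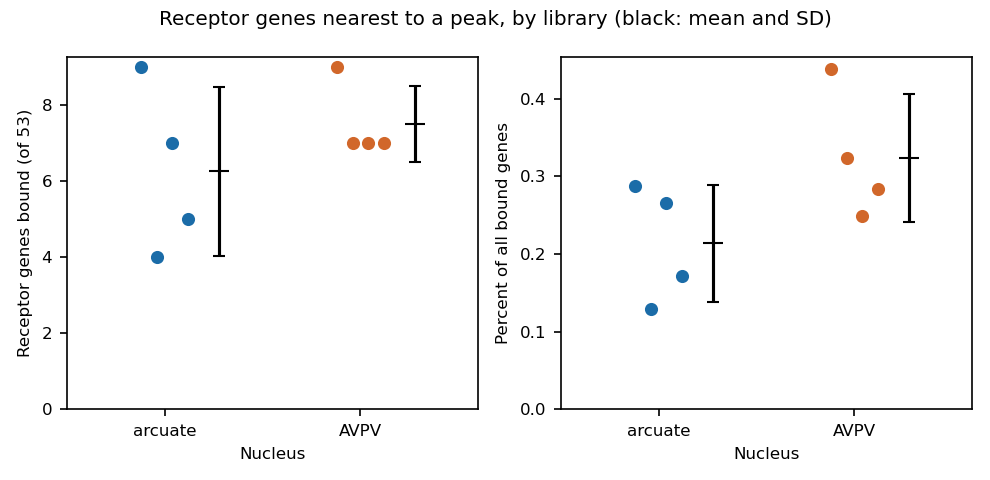
Receptor genes bound in each library (points), as a number of 53 (left) and as a percent of all genes bound in that library (right), for 4 arcuate (blue) and 4 AVPV (orange) libraries. Black bars give mean ± SD. Arcuate libraries range from 4 to 9 genes and AVPV libraries from 7 to 9.

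At Greb1, a classic estrogen target gene taken as a control of the lists, chr12:16760091-16761153 had a peak in all 8 libraries between the 97.1 and 99.4 percentiles. A further Greb1 region, chr12:16764613-16765284, also had a peak in all 8 libraries, between the 28.8 and 96.2 percentiles. Of 23 genes for the synthesis, vesicular storage, reuptake and breakdown of the same transmitters, 5 were bound in at least 1 library (21.7% beside 25.5% of all genes), 2 were called in the arcuate (8.70% beside 14.2%) and 4 in the AVPV (17.4% beside 11.5%). Dbh, which converts dopamine to noradrenaline, was bound in 4 arcuate and 2 AVPV libraries (Fisher's exact p = 0.429), with its closest region 11.1 kb from a start site, and was the only one of the 23 called within 20 kb. Ddc, which makes dopamine and serotonin from their precursors, was bound in 1 arcuate and 3 AVPV libraries (exact p = 0.486). Slc5a7, the choline transporter of cholinergic terminals, was bound in 3 and 2 libraries (exact p = 1). Bche, which splits choline esters, was bound in 2 AVPV libraries, and Tph2, the first enzyme of serotonin synthesis in the brain, in 1 arcuate library.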

How the data were processed

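Peak lists of 8 ERα ChIP-seq libraries were used, 4 per nucleus, grouped by their labels. No list was used for the 2 input libraries. The authors aligned reads with Bowtie2 (2.5.0) and called peaks per library with MACS2 (2.2.7.1) at a false discovery rate of 5%. Per the labels, deepTools (3.5) was also used. Each deposited peak carries a fold enrichment (a ratio over local background), −log10 values of p and q (a p-value and a q-value) and a score. The lists hold no read counts, so the depth behind a peak is unknown here. No peak was identical between libraries.

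Peak centres were assigned to the nearest of 26906 curated RefSeq start sites (GRCm38.p6). Promoters ran from 1 kb upstream to 100 bp downstream. Nuclei were compared with two-sided exact tests, Fisher's on libraries with and without a peak and a permutation test over 70 assignments, with Benjamini-Hochberg adjustment over all genes or regions. Genes bound in at least 3 libraries of a nucleus, or differing by at least 2 libraries, were named, as were those with peaks within 20 kb. Coupling classes were textbook ones. The values of 1 receptor gene are not reported here, though it is counted. The receptor genes and lists were chosen with earlier results of these data known. The nearest-gene assignment, the merging of peaks, Fisher's exact test and the adjustment were checked on planted cases with known answers. The permutation test and the element search were not checked in this way. Alternatives were distance limits, non-coding genes, host genes first, thresholds, lists of equal length, overlaps, a block on replicate number and each library left out in turn. Python 3.11.15, numpy 2.4.6, scipy 1.17.1 and matplotlib 3.10.9 were used.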

Additional observations from a re-analysis of the deposited data

Results flagged for a closer look

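AVPV library 1 stood apart in the number of receptor genes bound, with 9 beside 7 in each of the other 3 AVPV libraries, although its list was the shortest. The genes it held that no other AVPV library did were Chrm2 and Htr5a, each through a single peak. Arcuate library 4 stood apart within 20 kb, with 2 receptor genes (Adra2a and Htr5a) beside 1 in each of the other arcuate libraries. Of 14 groups of 4 libraries examined with Dixon's gap test, 2 were above its 95% critical value, and chance flags about 1 in 20 groups of continuous values. That rate does not apply to these 2 groups, which are whole-number counts with 3 equal values, since 3 equal values give the highest ratio at any gap.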

How the results depend on the processing

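The counts of called receptor genes, 7 in the arcuate and 8 in the AVPV, depended on how far a gene may lie from a peak and on which start sites compete. Both fell to 0 with a 20 kb limit. With a 50 kb limit both counts were 5. With the start sites of non-coding genes competing, 2 genes (Hrh1 and Htr5a) were called in the arcuate and 3 (Chrm4, Hrh1 and Htr2a) in the AVPV, while Adra2c, Drd3, Hrh4, Htr1a, Htr1b, Htr1d and Htr7 kept no library. With peaks of −log10 q of at least 5 the counts were 4 in the arcuate and 7 in the AVPV. With fold enrichment above 5 they were also 4 and 7, and with lists of equal length 3 and 7. Both counts were 12 when 1 library was enough and 5 when 3 libraries were needed. The difference in receptor genes per library, −1.25, turned to 0.75 within 20 kb and was −4.25 with lists of equal length. Lists of equal length gave 2 genes separated between the nuclei (Htr1a and Htr2a) in place of 0, through peaks lost from arcuate library 1 alone. With a peak inside a gene given to that gene first, the counts were 8 and 8, with Chrm3 added in the arcuate and Chrm4 replaced by Htr4 in the AVPV.

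When each library was left out in turn, the arcuate count ranged from 5 to 7, the AVPV count from 6 to 8, the difference per library from −2.17 to −0.50, the separated genes from 0 to 2 and the Htr1d percentile difference from −3.92 to −0.14. The 2 genes without arcuate library 1 were Htr1a and Htr2a, and the gene without arcuate library 4 was Htr1b. In each case the library left out was the only one that broke the separation, so this outcome was fixed in advance. Among all alternatives, libraries left out included, 69 values of these 5 results were counted as unchanged. The rule was a count within the factor set for counts, or a per-library difference within its SD. For the Htr1d difference the rule was the same sign and an exact p on the same side of the threshold, whatever its size. For the 11 single genes compared between nuclei, 182 values kept their side of the threshold and 5 passed it without adjustment (Htr1a, Htr2a and Htr1b under the settings just named). Only a gene bound in every library of 1 nucleus and none of the other can pass that threshold. Settings in which a gene lost all its libraries were counted as kept, so this tally does not measure stability.

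Libraries share replicate numbers across nuclei. Same-numbered libraries had correlations of their deviations of 0.0497, 0.0144, 0.0503 and −0.0832, so the numbers were not taken as pairs. With the replicate number as a block, the smallest exact sign-flip p that 4 pairs allow is 0.125, so the count of 0 receptor genes passing was fixed by the design (lowest exact p = 0.25), and the Htr1d difference was −2.01 (exact p = 0.75). The smallest Fisher's exact p that 4 against 4 libraries allow is 0.0286, and the 148 genes at that value had an adjusted p of 1.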
